A study of Mus musculus with 4 samples.

Results

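Open chromatin was examined at 35 forkhead transcription factor genes of the mouse, out of 21887 protein-coding genes in the gene table. The genes were taken from a given list of family members, all 35 of which were found in the table, and every listed peak that touched the gene body or the 10 kb on either side of it was assigned to the gene. The windows of the 35 genes touched 498 peaks in each wt library, 421 in Hox-/- replicate 1 and 452 in Hox-/- replicate 2, out of 191704 to 216795 peaks per library. Over the 4 libraries the peaks merged into 446 regions of 208141 in the genome. The windows of Foxd2 and Foxe3 overlap, as do those of Foxc2 and Foxl1, so that some peaks belong to both genes of a pair.

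The data are ATAC-seq peak lists of mouse embryonic stem cells, 2 libraries from wt cells and 2 from cells of the genotype Hox-/-, which per the title of the series have no Hox function left. Both genotypes grew in the same medium, with 10% serum, 100 ng per ml leukaemia inhibitory factor, 3 µM of the GSK-3 inhibitor CHIR99021 and 1 µM of the MEK inhibitor PD0325901. Cells were treated with a transposase that cuts accessible DNA, and the fragments were amplified for 12 cycles. Nothing in the labels says whether replicates are separate cultures or clones, so the spread between them may be technical.

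Forkhead proteins bind DNA through a winged-helix domain, and the family is divided by sequence into lettered subfamilies. Some members are present in most cell types, such as the Foxo factors, which insulin and growth factor signalling through Akt keeps out of the nucleus, and Foxm1, which drives genes of the late cell cycle. Many others are switched on in particular lineages, such as Foxa1 in endoderm or Foxn1 in the thymic epithelium. In embryonic stem cells, Foxd3 is known for its role in maintaining pluripotency, and Foxh1 as the partner of Smad proteins in Nodal signalling. Following the grouping given with the list, Foxk1, Foxk2, Foxj2, Foxj3, Foxo1, Foxo3, Foxp1, Foxp2, Foxp4 and Foxm1 are called the 10 widely expressed members here, and the remaining 25 the lineage members. No expression was measured in these libraries.

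The genotype labels were checked at the Hox clusters. Each of the 4 clusters had 38 to 58 peaks in each wt library and 0 to 2 in each Hox-/- library. The Y chromosome also differed, with 63 peaks in each wt library and 4 and 6 in Hox-/-, and whether this difference between the cells has a part in any result was not tested. Of 10 marker genes of embryonic stem cells, 10 had a peak within 1 kb of a gene end in all 4 libraries. So did 15 of 19 markers of primitive endoderm, trophoblast, neural cells and fibroblasts, and 67.1% of all protein-coding genes. The lists give no read counts. A relative depth was taken from the lowest background values (the 0.1% quantile) over nearly all peaks of a library. It was 0.941 to 1 of the deepest library in the wt libraries and Hox-/- replicate 2. In Hox-/- replicate 1 it was 0.640, so that absence from that list carries less weight.

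The strength of a peak was read from its rank within its own list, in which rank 1 has the highest −log10 p given by the authors' peak caller. Ranks from lists of different lengths are given side by side and no change between libraries is read from them. A peak is called strong when it is among the 50000 highest of its library, and it is a gene-end peak when its summit lies within 1 kb of either end of the gene. The order by fold over background can differ. The gene-end peak of Foxo3 was strong at a fold of 4.08 to 4.46, and that of Foxe3 was not at 7.16 to 8.09.

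All 10 widely expressed members had a gene-end peak in all 4 libraries, as did 22 of the 25 lineage members, against 67.1% of protein-coding genes. A strong gene-end peak in all 4 libraries was found at 6 of the 10 widely expressed and 8 of the 25 lineage members, against 47% of protein-coding genes. The lineage members without a gene-end peak in every library were Foxa1, Foxi1 and Foxl1.

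Start sites and promoter sequences were taken from RefSeq promoters of GRCm38.p6, in which 23 of the 35 members matched. A listed peak overlapped the 300 bases of the promoter in all 4 libraries at 7 of 7 widely expressed and 10 of 16 lineage members, against 60.4% of 21263 promoters of protein-coding genes. There was none in any library at Foxa1, Foxb2, Foxe3, Foxn1 and Foxn3, and at Foxi1 it was listed in both wt libraries only. The sequence before the start site is shown for 7 members, to set those with strong ends (Foxk2, Foxj3, Foxd2) beside those with weak ends (Foxp4, Foxf2, Foxa1). Foxi1 is added as the member with gene-end peaks in both wt libraries and none in either Hox-/- library. Each line gives the 250 bases before the start site, 5′ to 3′ on the strand of the gene, with every CpG dinucleotide in capitals.
Foxk2 (chr11:121259737-121259986, plus strand): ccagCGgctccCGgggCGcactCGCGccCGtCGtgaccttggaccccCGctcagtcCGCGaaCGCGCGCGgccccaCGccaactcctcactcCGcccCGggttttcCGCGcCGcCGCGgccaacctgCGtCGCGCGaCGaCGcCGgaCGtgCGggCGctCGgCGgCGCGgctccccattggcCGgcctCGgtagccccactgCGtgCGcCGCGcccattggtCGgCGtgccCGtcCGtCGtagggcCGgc
Foxj3 (chr4:119539411-119539660, plus strand): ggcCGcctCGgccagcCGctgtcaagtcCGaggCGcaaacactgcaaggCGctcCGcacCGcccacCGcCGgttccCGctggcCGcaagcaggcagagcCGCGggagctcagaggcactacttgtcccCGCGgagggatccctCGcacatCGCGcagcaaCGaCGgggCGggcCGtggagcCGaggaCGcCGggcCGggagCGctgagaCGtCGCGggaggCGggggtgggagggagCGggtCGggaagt
Foxd2 (chr4:114908899-114909148, minus strand): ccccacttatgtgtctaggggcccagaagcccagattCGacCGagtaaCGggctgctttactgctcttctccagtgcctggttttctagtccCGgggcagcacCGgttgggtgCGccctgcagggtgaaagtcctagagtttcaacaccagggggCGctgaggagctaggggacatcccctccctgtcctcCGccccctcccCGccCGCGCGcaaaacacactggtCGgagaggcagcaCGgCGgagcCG
Foxp4 (chr17:47924633-47924882, minus strand): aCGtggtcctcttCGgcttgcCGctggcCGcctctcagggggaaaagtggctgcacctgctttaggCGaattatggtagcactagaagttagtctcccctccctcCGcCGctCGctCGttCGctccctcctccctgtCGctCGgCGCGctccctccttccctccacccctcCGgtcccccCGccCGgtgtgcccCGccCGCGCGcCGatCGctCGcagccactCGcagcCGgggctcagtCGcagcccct
Foxf2 (chr13:31625566-31625815, plus strand): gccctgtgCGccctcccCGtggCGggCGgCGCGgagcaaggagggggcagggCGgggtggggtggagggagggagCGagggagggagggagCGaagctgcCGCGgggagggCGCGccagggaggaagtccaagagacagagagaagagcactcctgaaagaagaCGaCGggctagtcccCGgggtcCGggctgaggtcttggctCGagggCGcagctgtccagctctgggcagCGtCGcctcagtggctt
Foxa1 (chr12:57546112-57546361, minus strand): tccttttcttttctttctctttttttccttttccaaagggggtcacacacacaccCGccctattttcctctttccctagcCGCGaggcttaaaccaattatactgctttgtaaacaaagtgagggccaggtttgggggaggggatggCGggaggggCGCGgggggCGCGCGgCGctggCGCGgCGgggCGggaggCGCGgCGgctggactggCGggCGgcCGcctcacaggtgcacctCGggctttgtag
Foxi1 (chr11:34208090-34208339, minus strand): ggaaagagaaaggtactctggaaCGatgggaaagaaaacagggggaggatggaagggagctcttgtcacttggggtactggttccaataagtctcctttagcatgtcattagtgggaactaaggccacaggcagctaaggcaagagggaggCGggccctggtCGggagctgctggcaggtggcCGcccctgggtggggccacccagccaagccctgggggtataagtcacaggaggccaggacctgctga

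CpG dinucleotides are concentrated in the promoters of many broadly used and developmental genes. The 300 bases of the Foxk2 promoter held 59 and those of Foxj3 42. There were 33 at Foxp4, 27 at Foxf2, 26 at Foxd2 and at Foxa1, and 6 at Foxi1. The median was 35 over the 7 widely expressed members and 22 over the 16 lineage members, against 13 over 21263 promoters of protein-coding genes. Foxf2 and Foxa1, with weak or missing gene-end peaks, had about as many CpGs as Foxd2. Across the 23 members, Spearman's correlation of CpG number with the gene-end rank (as a percentage of the list) was −0.253 to −0.307 in the 4 libraries, which share the same promoters, so these are a description only.

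Among the widely expressed members, Foxj3, which encodes a broadly present activator, had the best gene-end peak, at ranks 15428 and 12047 in wt and 9398 and 9795 in Hox-/- (here and below, replicate 1 is given before replicate 2). That peak also lies 179 to 191 bp from an end of another gene, Frg2f1. Its relative Foxj2 had its best gene-end peak at ranks 78114 and 95108 in wt and 86382 and 58208 in Hox-/-. The ranks of the pair did not overlap in any library.

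The Foxk genes encode factors that repress genes of autophagy and act on glucose metabolism. Foxk2 had a strong gene-end peak in each library, at ranks 21768 and 17698 in wt and 21066 and 20295 in Hox-/-. At Foxk1 the gene-end peak stood at 67306 and 67436 in wt and at 38984 and 80119 in Hox-/-. The Hox-/- values of Foxk1 lie on either side of both wt values.

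Both Foxo genes had strong gene-end peaks throughout. Foxo1 ranked 22060 and 25897 in wt and 20774 and 17016 in Hox-/-, and Foxo3 ranked 38259 and 39102 in wt and 43367 and 43457 in Hox-/-. By gene-end peak Foxo1 stood above Foxo3 in every library. A region at chr10:42277530-42278560 begins 835 bp before the start of Foxo3. It ranked 9660 and 7957 in wt and 8104 and 10409 in Hox-/-, ahead of Foxo1. The summits of these peaks lie more than 1 kb from the gene end, so they count as distal. Foxm1 ranked 30743 and 25061 in wt and 28432 and 27386 in Hox-/-. This was ahead of the gene-end peak of Foxo3 in every library and behind Foxo1 in all but wt replicate 2. The best gene-end peak of Foxm1 touches an end of another gene, Tex52. The region over the other end of Foxm1, at chr6:128362334-128363579, touches an end of Rhno1 and ranked 65068 and 58984 in wt and 58366 and 69667 in Hox-/-, so it was not strong and lay behind the gene-end peak of Foxo3 in every library.

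Foxp proteins are repressors, of which Foxp2 is known from the brain and Foxp1 from blood, heart and brain. Foxp1 had strong gene-end peaks, at 41505 and 44175 in wt and 35707 and 27299 in Hox-/-. Foxp2 ranked 65650 and 68580 in wt and 68145 and 69375 in Hox-/-, values that lie close together. Foxp4 had the weakest gene ends of the widely expressed class by median, at 69216 and 99123 in wt and 91305 and 97974 in Hox-/-.

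The lineage class spread far more widely than the widely expressed class. At its upper end stood Foxh1, with a gene-end peak at ranks 4858 and 3907 in wt and 3329 and 3510 in Hox-/-. By rank it was ahead of all widely expressed members in each library. By fold over background its peak stood at 10.3 and 10.8 in wt and 11.7 and 11.6 in Hox-/-. That of Foxm1 was higher in all but Hox-/- replicate 2, at 11.8 and 13.9 in wt and 11.8 and 11.1 in Hox-/-. The peak at Foxh1 also touches an end of the neighbouring gene Ppp1r16a, so it cannot be assigned to either gene alone. The next members also had a neighbour: Foxj1, the regulator of motile cilia, ranked 10094 and 10854 in wt and 7704 and 9995 in Hox-/- with a peak 321 to 335 bp from an end of Rnf157. Foxa3, a liver factor, ranked 12527 and 11352 in wt and 13806 and 11879 in Hox-/- with a peak that touches an end of Sympk. In all, the best gene-end peak lay within 1 kb of another protein-coding gene's end in all 4 libraries at 3 lineage members (these) and at 2 widely expressed members (Foxj3 and Foxm1).

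Several lineage members without such a neighbour also had strong gene ends. Foxq1, known from hair and stomach, ranked 18907 and 15704 in wt and 22644 and 14109 in Hox-/-. Foxn2, about which less is known, ranked 15317 and 19442 in wt and 16376 and 15491 in Hox-/-. Foxd2 ranked 17067 and 14659 in wt and 22874 and 28255 in Hox-/-. Foxi3, a factor of the ectodermal placodes, and Foxd1, a factor of the kidney stroma, were the other members with a strong gene-end peak in each library, with ranks of 19009 to 30269 and of 23950 to 38592.

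Foxd3 stood in the middle of the lineage class. Its gene-end peak ranked 94862 and 81562 in wt and 68401 and 70292 in Hox-/-. Foxc1, which acts in mesoderm and vessels, ranked 94818 and 77354 in wt and 88884 and 93692 in Hox-/-, in the same part of the list. Foxn1, the thymic factor, ranked 58348 and 52842 in wt and 62301 and 49802 in Hox-/-. Foxn3 ranked 69083 and 40180 in wt and 34306 and 43923 in Hox-/-.

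The members that share a window differed from each other. Foxe3, a lens factor beside Foxd2, ranked 61446 and 62034 in wt and 59635 and 58446 in Hox-/-, behind Foxd2 in every library. By fold over background Foxe3 was behind in wt (8.09 and 7.79, against 8.73 and 9.61). It was ahead in Hox-/- (7.57 and 7.16, against 7.42 and 6.87). Foxc2, a relative of Foxc1, ranked 53452 and 56485 in wt and 49137 and 66935 in Hox-/-. Its neighbour Foxl1, known from the gut mesenchyme, ranked 136729 and 117659 in wt and 113593 in Hox-/- replicate 1, and had no gene-end peak in Hox-/- replicate 2.

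The weakest gene ends belonged to Foxf1, Foxi1, Foxb2, Foxf2 and Foxa1. Foxf1, a factor of the mesoderm around gut and lung, ranked 116674 and 160157 in wt and 113371 and 149880 in Hox-/-. Its relative Foxf2 ranked 174204 and 117629 in wt and 190038 and 180928 in Hox-/-. Foxa1, which opens chromatin in endoderm, had a gene-end peak in wt replicate 2 alone, at rank 101554. The annotated span of Foxa1 reaches beyond the start site in the promoter table, and within 1 kb of that start site Foxa1 had a peak in all 4 libraries, at 123733 and 149922 in wt and 127894 and 114354 in Hox-/-. None of these peaks reached the promoter bases shown above. At Foxn1 and Foxn3 the reverse was seen: both had gene-end peaks in every library, and neither had a peak within 1 kb of the start site in any. The gene-end region of Foxn1 lies at the 3′ end, centred 27940 bp after the start site. Those of Foxn3 lie far before its start site, centred at −112384 and −113700 bp.

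Weak gene ends were not always narrow. At Foxb2, the peaks covered 39.0% of the sequence within 1 kb of the gene ends (mean of the 4 libraries), the highest share in the lineage class. The gene had 6 and 6 gene-end peaks in wt and 3 and 5 in Hox-/-, of which the best ranked 145726 and 165153 in wt and 115179 and 159413 in Hox-/-. Foxe1, the thyroid factor, had 6 and 5 in wt and 5 and 6 in Hox-/-, with 34.5% covered. Its best peak ranked 126276 and 113881 in wt and 129962 and 110999 in Hox-/-. Foxh1, with the best ranks, had a single gene-end peak in each library and 14.2% covered. The median share covered was 24.1% over the lineage members and 28.8% over the widely expressed members.

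**Figure D1:**
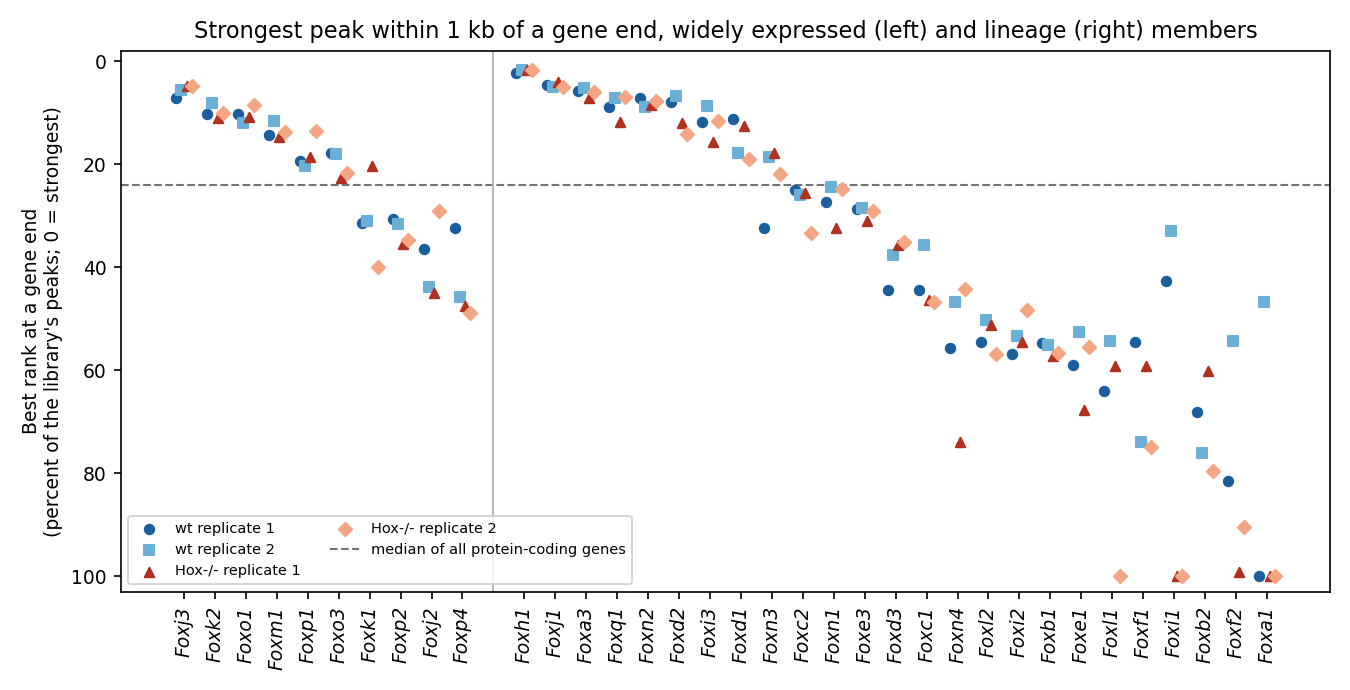
Rank of the strongest peak within 1 kb of a gene end, as a percentage of the peaks in the library (vertical axis, strongest at the top), for the 10 widely expressed and 25 lineage members; each point is 1 library and members without such a peak stand at 100. The widely expressed members all rank in the stronger part of the list, with class medians of 17.7% to 19.5%, while the lineage members run from Foxh1 at the top to Foxa1 at the bottom.

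To compare the classes, ranks were divided by the number of peaks in the library, and a gene without a gene-end peak was given 100%. The median over the widely expressed members was 18.7% and 19.2% in wt and 19.5% and 17.7% in Hox-/-. Over the lineage members it was 42.7% and 33.1% in wt and 35.7% and 35.1% in Hox-/-. Over all protein-coding genes it was 22.7% to 25.3%, between the classes in every library. The difference, widely expressed minus lineage, was −17.9 ± 4.35 percentage points (SD, n = 4 libraries). Genes of a class are not replicates and no test was made. Around the start site alone, which was known for 7 widely expressed and 16 lineage members, the difference was −31.0 points.

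Distal peaks are those in the window whose summit lies more than 1 kb from both ends of the gene. They were counted per 10 kb because the genes differ in length, from 12893 to 597405 bp in the widely expressed class and from 1515 to 373587 bp in the lineage class. The median over the widely expressed members was 1.48 to 1.77 per 10 kb, and over the lineage members 1.85 to 2.22 per 10 kb, across libraries. Both lay above the median of all protein-coding genes, 1.07 to 1.24 per 10 kb. The difference of the class medians, −0.426 ± 0.0970 per 10 kb (SD, n = 4 libraries), depended on the window and the peaks kept: with flanks of 50 kb it turned to 0.308, with the flanks alone it was −0.208, with the 50000 strongest peaks −0.0922, and −0.225 when Foxn2 and Foxn3 were moved to the widely expressed class and Foxp2 to the lineage class.

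Foxk1, Foxo3 and Foxp4 had the densest distal peaks of the widely expressed members. Foxk1 had 28 and 26 distal peaks in wt and 23 and 25 in Hox-/-, or 3.01 to 3.66 per 10 kb. Foxo3 had 36 and 35 in wt and 30 and 31 in Hox-/-, and Foxp4 24 and 20 in wt and 21 and 20 in Hox-/-. In the lineage class the densest were Foxd2 with 3.76 to 4.30, Foxb1, a factor of the diencephalon, with 3.12 to 4.68, and Foxh1 with 3.03 to 4.04 per 10 kb. These are short genes whose windows hold few peaks. Foxd2 had 8 and 7 distal peaks in wt and 7 and 7 in Hox-/-, Foxb1 6 and 9 in wt and 7 and 7 in Hox-/-, and Foxh1 8 and 7 in wt and 6 and 8 in Hox-/-. At its gene ends Foxb1 ranked 117115 and 119669 in wt and 109649 and 113663 in Hox-/-.

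The long genes Foxp1 and Foxp2 differed widely in the number of distal peaks. Over 597405 bp, Foxp1 had 57 and 63 distal peaks in wt and 53 and 61 in Hox-/-. Foxp2, over 540629 bp, had 4 and 3 in wt and 2 and 3 in Hox-/-, or 0.0359 to 0.0719 per 10 kb, the lowest density of the family. At its gene ends alone Foxp2 had 5 and 3 peaks in wt and 3 and 4 in Hox-/-, about as many as in the rest of its window. Foxn3 has a long body too, of 373587 bp, and had 67 and 66 distal peaks in wt and 63 and 60 in Hox-/-.

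**Figure D2:**
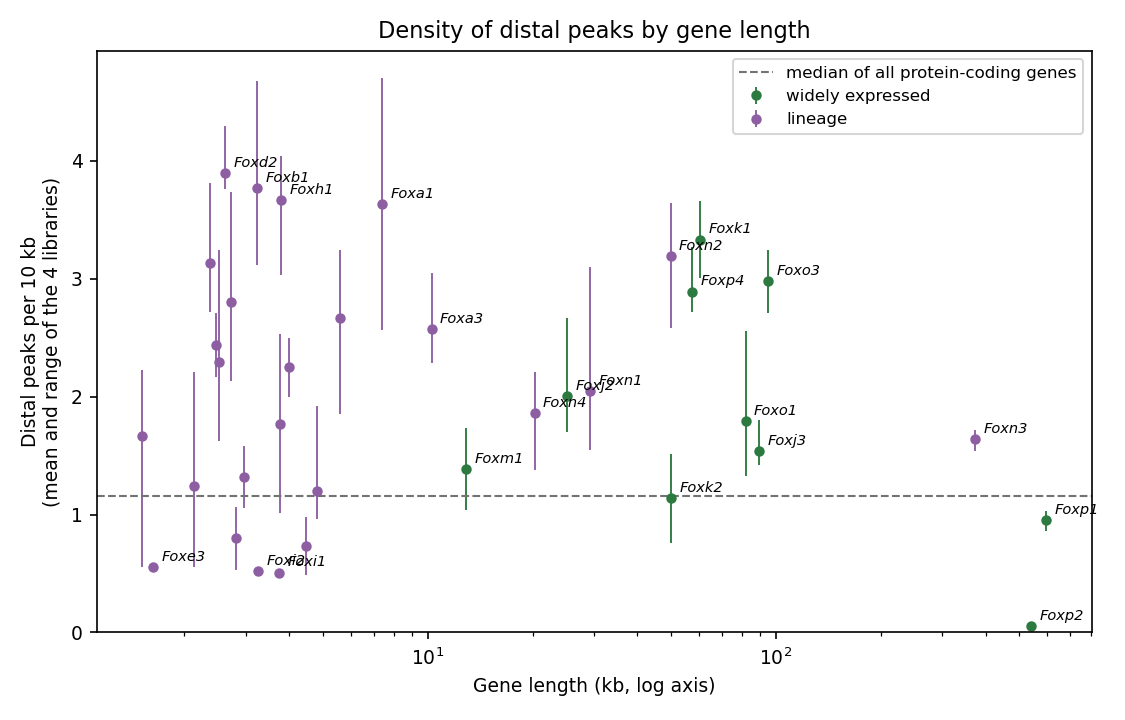
Distal peaks per 10 kb of window (vertical axis) against gene length in kb (horizontal log axis); points are means of the 4 libraries and bars run from the lowest to the highest library. Foxp2 lies near 0, at 0.0359 to 0.0719, while Foxp1 lies at 0.864 to 1.03; the dashed line is the median of all protein-coding genes.

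In most members the strongest peak of the window was not at a gene end. The best distal peak ranked above the best gene-end peak in all 4 libraries at 7 of the 10 widely expressed and 17 of the 25 lineage members, against 45.7% of protein-coding genes. When peaks within 1 kb of another gene's end were left aside, it was so at 6 widely expressed and 15 lineage members, against 40.5% of protein-coding genes. The widely expressed members outside this second count were Foxk2, Foxo1, Foxp2 and Foxm1. At Foxo3 the result depends on the 1 kb limit, as its best distal peak lies in a region that begins 835 bp from the gene.

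The strongest region of all windows lay before Foxj2, at chr6:122810578-122811631, centred at −9080 bp from the start site and 8215 bp from an end of Slc2a3, a glucose transporter gene. It ranked 174 and 588 in wt and 457 and 368 in Hox-/-. Foxk1 had a region inside the gene, at chr5:142440056-142441169 and 20846 bp from the nearer end, with ranks of 802 and 988 in wt and 940 and 844 in Hox-/-. Both regions ranked far ahead of the ends of the same genes, which ranked no better than 38984 in any library.

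Among the lineage members, Foxi3 had a region at chr6:70963723-70964844, beyond the gene and centred 7678 bp after its start site. It ranked 1260 and 1432 in wt and 638 and 843 in Hox-/-. A region within Foxn3, at chr12:99299753-99300505, ranked 954 and 855 in wt and 2639 and 1246 in Hox-/-. Both regions ranked ahead of the gene ends of the same genes in every library. Foxn2 and Foxp4 each had a region inside the gene body with ranks of 2457 to 4166 and of 2687 to 4603. Some other high-ranking distal peaks sit at a neighbour: that in the Foxm1 window lies at an end of Tulp3, and those in the windows of Foxh1 and Foxa3 lie at or near ends of Kifc2 and Irf2bp1.

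**Figure D3:**
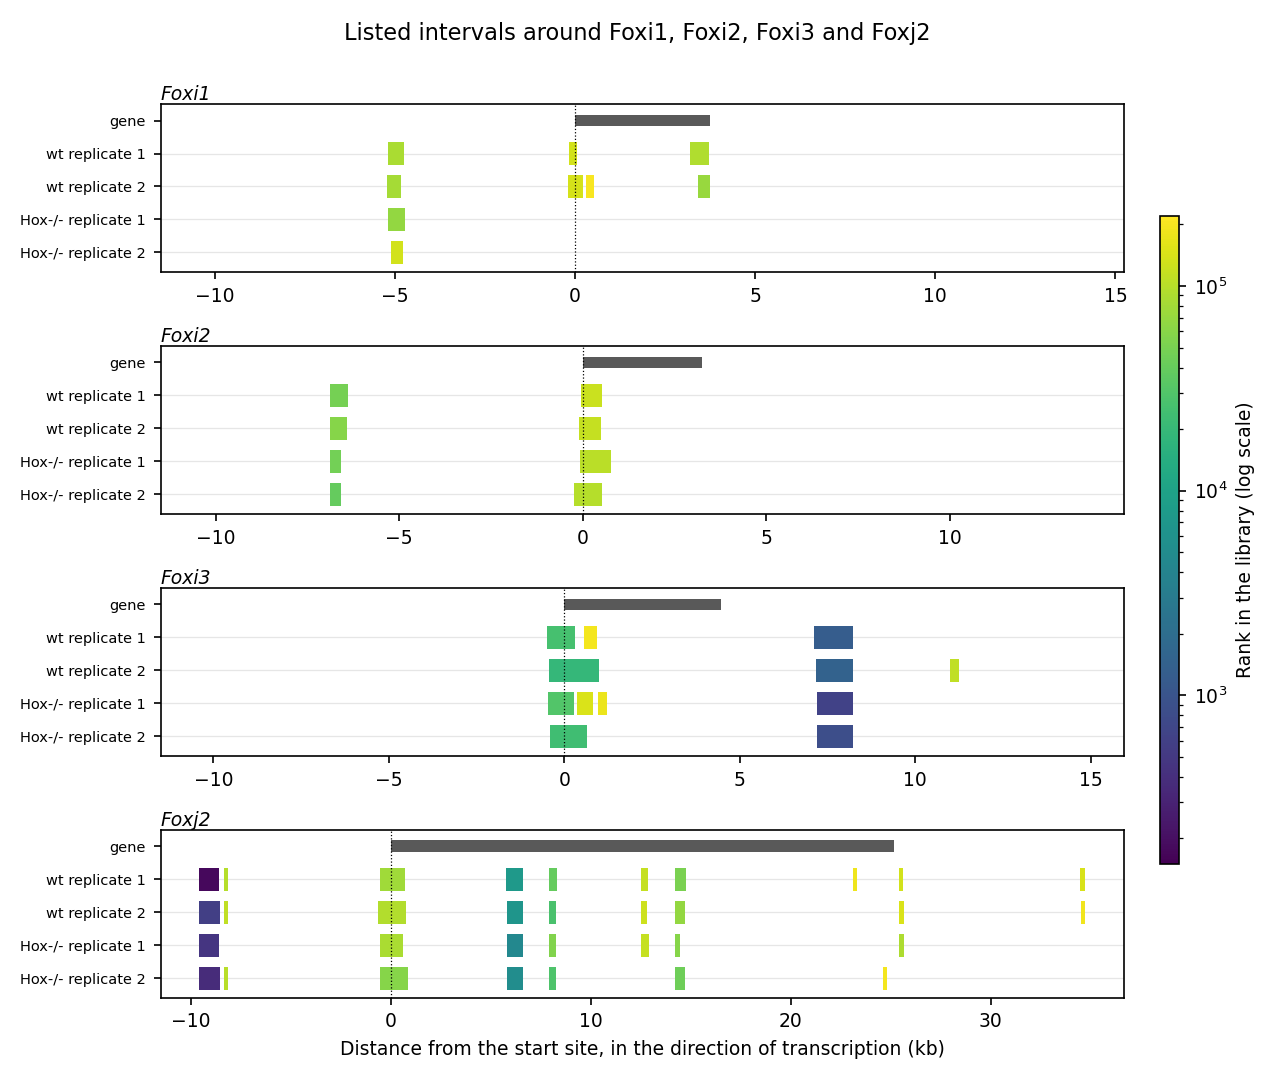
Listed peak intervals of the 4 libraries around Foxi1, Foxi2, Foxi3 and Foxj2, by distance from the start site in the direction of transcription (kb); colour gives the rank in the library on a log scale, dark being strongest, and the grey bar is the annotated gene. The dark intervals are those after Foxi3 (ranks 638 to 1432) and before Foxj2 (ranks 174 to 588), and the rows of Hox-/- at Foxi1 are empty at both gene ends.

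Summits at the start sites were placed alike in all libraries at many members. The summit of the strongest peak overlapping the promoter lay −130 or −131 bp from the start site at Foxp4, −12 to −6 bp at Foxo1 and −58 to −48 bp at Foxk2, where negative values lie before the start. At Foxd1 it lay at −29 to −24 bp, and at Foxj3 and Foxi3 farther out, at −290 to −274 and −209 to −191 bp. The position varied far more at others, over 741 bp between libraries at Foxl2, 469 bp at Foxn4 and 253 bp at Foxj2.

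**Figure D4:**
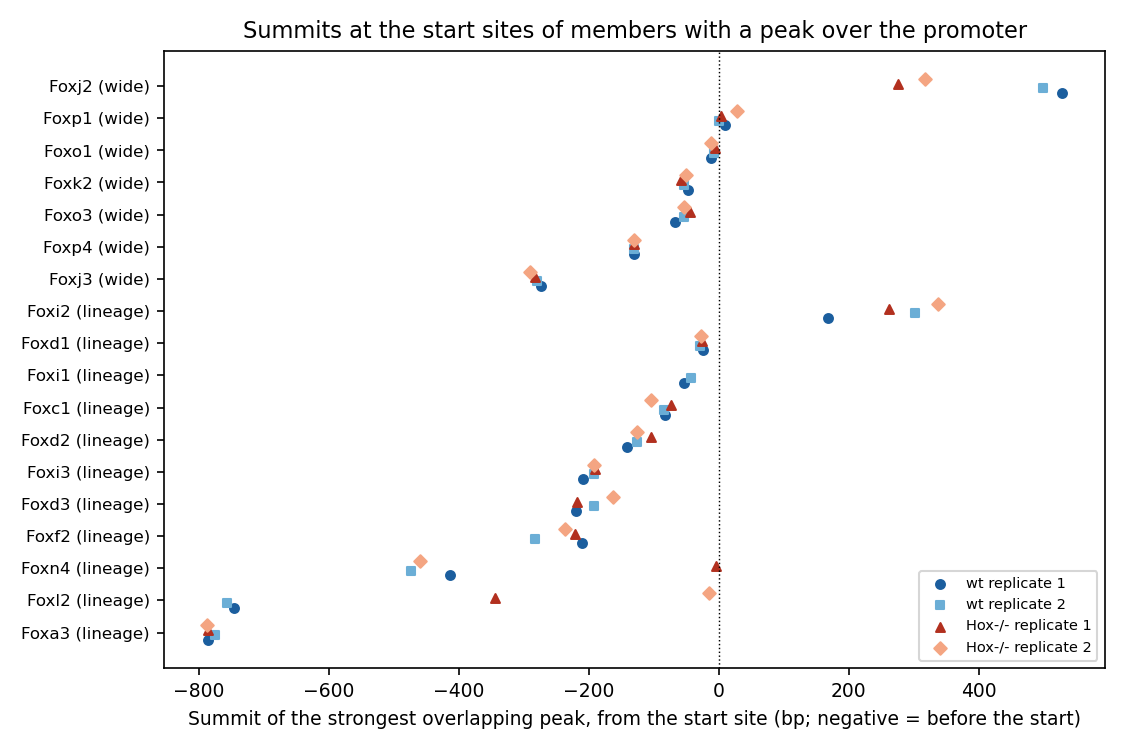
Distance in bp from the start site to the summit of the strongest peak overlapping the promoter (horizontal axis, negative before the start), for the members with such a peak; each point is 1 library. Points of the 4 libraries coincide at Foxp4, Foxo1 and Foxd1 and are scattered at Foxl2 and Foxn4.

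The promoters were searched on both strands for TGTTTAC and TGTTTGC, forms of the site that forkhead proteins bind; a stretch that matches either of them cannot match the other. TGTTTAC occurred in the promoter of Foxa1 alone, beginning at position −141 on the opposite strand. TGTTTGC occurred at Foxj3, at position −216 on the opposite strand, and at Foxp1, at position −167 on the same strand. Of all promoters of protein-coding genes, 3.01% held TGTTTAC and 4.58% held TGTTTGC. These matches are letters in the window and not measured binding.

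The genotypes were then compared in the forkhead windows. Of every 10000 peaks, 23.1 and 22.9 had their summit in a forkhead window in the wt libraries, and 21.8 and 22.4 in the Hox-/- libraries. The means were 23.0 ± 0.168 in wt and 22.1 ± 0.440 in Hox-/- (SD, n = 2 each), and Hox-/- minus wt was −0.882. The groups did not overlap, and a two-sided exact permutation test gave p = 0.33, which 2 libraries against 2 cannot go below. Without the shallower Hox-/- replicate 1 the difference was −0.571, and it turned to 1.20 when only the 50000 strongest peaks were kept. The difference was −0.403 for the widely expressed members and −0.479 for the lineage members (p = 0.33 for each by the same exact test), and these turned to 0.800 and 0.400 among the strongest peaks. They also shrank under other settings, to −0.0593 for the widely expressed members with flanks of 50 kb and to −0.190 for the lineage members when overlapping peaks were merged (p = 0.67 for each by the exact test).

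Of 315 forkhead regions called in both wt libraries, 22 had no peak in either Hox-/- library, or 6.98%, where 5.44% of such regions of the genome did so. In the reverse direction, 4 of 282 regions called in both Hox-/- libraries had no wt peak, or 1.42%, against 1.95% of the genome. Both shares are near the background. The 22 regions lay at 13 members, with 4 at Foxp1, 3 each at Foxn3 and Foxo1, 2 each at Foxo3 and Foxi1, and 1 at each of the other members. The 4 regions of the reverse kind lay at Foxp1 (2), Foxn3 and Foxc1.

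The counts rose when 1 library was left out, as did those of the genome. Without wt replicate 1 there were 48 of 362 wt-only forkhead regions (11.9% in the genome) and 10 of 282 Hox-/- only regions (4.32%). Without wt replicate 2 there were 53 of 361 (11.2%) and 8 of 282 (4.55%). Without Hox-/- replicate 1 there were 32 of 315 (9.36%) and 24 of 332 (7.38%), and without Hox-/- replicate 2 there were 37 of 315 (12.4%) and 18 of 317 (6.51%). When a region had to be among the 100000 strongest to be present, 1 of 162 wt-only and 0 of 144 Hox-/- only forkhead regions were left (0.136% and 0.0223% in the genome). When it was absent if not among the 100000 strongest, there were 125 of 315 and 93 of 282 (36.1% and 30.7%).

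Most of the 22 wt-only regions were weak in wt. Of the 67 forkhead regions whose weaker wt rank was within 50000, 0 were without a Hox-/- peak, and of the 95 from 50001 to 100000 there was 1. There were 2 of 73 from 100001 to 150000, and 19 of 80 beyond. In the genome the shares in the same bands were 0.0580%, 0.225%, 3.55% and 18.7%.

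**Figure D5:**
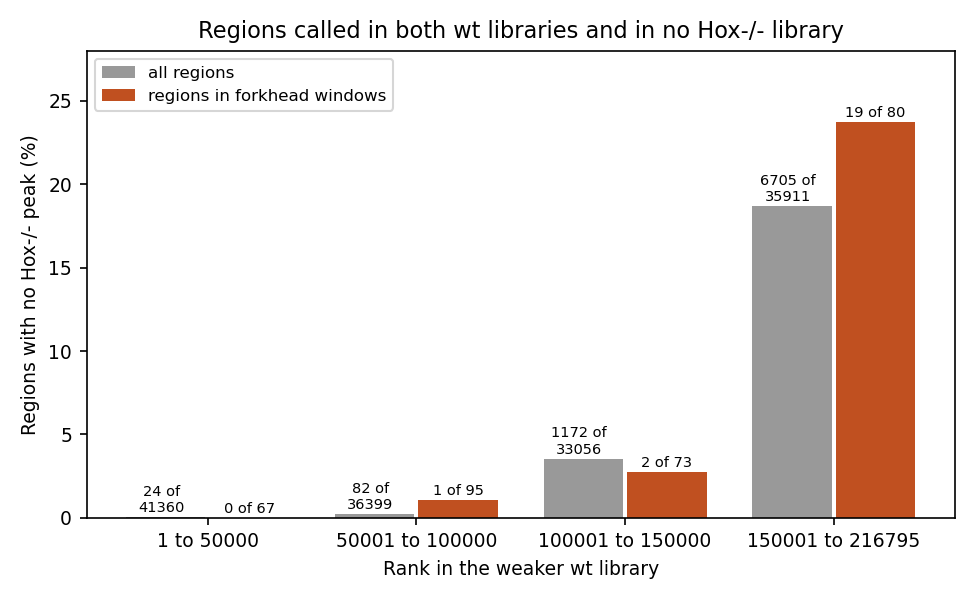
Share of regions called in both wt libraries that had no peak in either Hox-/- library (vertical axis, percent), by the rank in the weaker wt library (horizontal axis), for all regions of the genome (grey) and for forkhead windows (orange). In both sets most such regions are in the weakest band, where 19 of 80 forkhead regions had no Hox-/- peak.

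The 1 region between ranks 50001 and 100000 belongs to Foxi1, which encodes a factor of acid-secreting cells in the inner ear and kidney. It lies at the end of the gene, at chr11:34204343-34204901, and ranked 91216 and 71717 in wt replicates 1 and 2. A second region, at chr11:34207881-34208280 over the start site, ranked 134545 and 137066. Neither was listed in Hox-/- replicate 1 or 2, of which replicate 2 had a relative depth of 0.987. Another region, before the gene, at chr11:34212806-34213307, was listed in all 4 libraries, at 87401 and 82212 in wt and 66796 and 133500 in Hox-/-.

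Foxi1 was the 1 member of 34 with gene-end peaks in both wt libraries that had none in either Hox-/- library, which held for 0.924% of protein-coding genes. In the reverse direction there was 0 of 32 members, against 0.276% of protein-coding genes. Its relatives Foxi2 and Foxi3 had gene-end peaks in all 4 libraries, Foxi2 at ranks 121736 and 115907 in wt and 104388 and 96770 in Hox-/-. A merged region was placed at a gene end when its interval, rather than a summit, came within 1 kb of that end, and as distal otherwise. By this measure the other wt-only regions at gene ends were at Foxb2 and Foxe1, both of which had other gene-end peaks in Hox-/-. The region at Foxb2, chr19:16871085-16871558, ranked 195059 and 137400 in wt, and its peak of rank 137400 counts as distal by its summit. The region at Foxe1, chr4:46344280-46344751, ranked 128885 and 175864.

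The remaining 18 wt-only regions were distal by the same interval measure. The strongest of them lay in the body of Foxp1, at chr6:99033144-99033454, with ranks of 101008 and 131005 in wt. A region in the body of Foxn1, at chr11:78377561-78378159, ranked 150721 and 106430. The 4 Hox-/- only regions were distal as well, and the strongest lay before Foxc1, at chr13:31800596-31800819, with ranks of 117448 and 136922 in Hox-/-. The region in Foxn3 ranked 142932 and 156902, and those in Foxp1 ranked 157875 and 195057, and 160239 and 188263.

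Genes that act with forkhead factors were looked at by the same measure. Of 23 such genes, 20 had a gene-end peak in all 4 libraries, against 67.1% of protein-coding genes. None was listed in both libraries of wt and absent from both of Hox-/- (0 genes, against 0.924% of protein-coding genes), or the reverse (0 genes, against 0.276%). For Foxm1 these were the target genes Plk1, Ccnb1, Aurkb, Cenpf and Cdc25b (5 of 5), with Cenpf at 0.0816% to 0.163% of the list and Plk1 at 1.42% to 2.45%. Among the partners and targets of Foxh1 it was 7 of 8, with Smad2 at 2.75% to 5.19% and Nodal at 31.8% to 39.6%, and with no gene-end peak at Lefty2 in any library. Upstream of the Foxo factors it was 5 of 6, with Akt1 at 4.87% to 8.72% and Ywhaz without one in Hox-/- replicate 2, and among the Foxk partners 3 of 4, with Asxl1 at 1.34% to 2.00% and Srf at 47.8% to 70.2%. Sin3a was the other gene without a gene-end peak in any library. The list medians ran from 2.42% to 4.27% for the Foxm1 targets, 15.2% to 18.4% upstream of the Foxo factors, 25.8% to 31.4% for Foxh1 and 27.9% to 40.1% for the Foxk partners, beside 22.7% to 25.3% over all protein-coding genes.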

How the data were processed

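The deposited files are 1 peak list per library, for 2 wt and 2 Hox-/- libraries. The submitters' processing notes name cutadapt 4.8, Bowtie2 2.5.0, Picard 2.18.2, bedtools 2.30.0, MACS2 2.2.9.1, deepTools 3.5.4 and the build mm10, with no role or order; duplicate handling and read shifting are not given in the sources used here. In the deposited lists each peak has an interval, a fold over background (a linear ratio), a −log10 p, a −log10 q (1.30 at the lowest in each library), a score and a summit, as the authors' peak caller gave them. The fold and −log10 p served to rank and describe peaks within a list and to derive the relative depth. The score was not used.

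Lines that share an interval were counted as separate peaks. Genes came from RefSeq (GRCm38.p6, the same assembly as mm10): in wt replicate 1 a summit lay within 250 bp of 30.7% of 43774 gene ends, and of 6.98% when the ends were displaced by 10000 bp. Peaks of all libraries were merged where they overlapped by 1 bp. For depth, fold and p were solved for the summit pileup and background under a Poisson model, on peaks with a −log10 p under 200; 100% of pileups were within 0.05 of a whole number, and the 0.1% quantile of the background was compared. Scripts used Python 3.11.15 with pandas 2.3.3 and scipy 1.17.1, and were tested on simulated lists, in which 200 of 200 planted regions were recovered among 20000.

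The members, classes, lists and tests were chosen with earlier results of these data known. By rule, values in every library are given for the 5 best and 5 weakest gene ends of each class, the 3 densest members of each class, members with regions of 1 genotype and members that share a window; other members with values, such as Foxd3, Foxd1, Foxi2 and Foxi3, were chosen after their values were seen. Libraries of equal replicate number were not treated as pairs in the main results, and whether they were processed together is not known here. The correlation of replicate rank differences between genotypes was 0.00367 over 122749 regions. It cannot settle the point, as libraries handled together need not share a shift in ranks.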

Additional observations from a re-analysis of the deposited data

How the results depend on the processing

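Over the results, 89 alternative values were computed, of which 4 turned in direction; no other difference changed sign, but many changed in size. The share difference of the widely expressed members shrank from −0.403 to −0.0593 with flanks of 50 kb, and that of the lineage members from −0.479 to −0.190 with overlapping peaks merged and −0.283 at a −log10 q of at least 5. With the 50000 strongest peaks, the share difference (Hox-/- minus wt, per 10000 peaks) was 1.20 over all members, 0.800 over the widely expressed and 0.400 over the lineage members, gene-end peaks in all 4 libraries were left at 6 widely expressed and 8 lineage members, and the distal difference was −0.0922 per 10 kb. The distal difference turned to 0.308 with flanks of 50 kb, and was −0.208 with flanks alone and −0.225 with the other classes. The rank difference was −24.6 points within 500 bp, −31.0 at start sites, −22.8 with the other classes and −24.8 with overlapping peaks merged. Within 1 kb of the start site, 7 of 7 widely expressed and 13 of 16 lineage members had a peak in all 4 libraries. The share of all protein-coding genes was not computed for this measure, so these counts have no background. The wt-only and Hox-/- only regions numbered 1 of 162 and 0 of 144 when presence needed the 100000 strongest (0.136% and 0.0223% of regions in the genome). They numbered 125 of 315 and 93 of 282 when absence meant not being among them (36.1% and 30.7%). With flanks of 50 kb they numbered 39 of 587 and 7 of 524 (22 of 315 and 4 of 282 with flanks of 10 kb). These changes in the region counts follow from how the counts are built. For the other changes the cause was not tested.

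Leaving out 1 library gave share differences of −1.19 to −0.571 over all members, −0.598 to −0.208 over the widely expressed and −0.637 to −0.321 over the lineage members, 32 to 53 wt-only and 8 to 24 Hox-/- only regions, 10 to 10 widely expressed and 22 to 23 lineage members with gene-end peaks, rank differences of −19.2 to −15.8 and distal differences of −0.471 to −0.394. With the replicate block the share difference was −0.882, equal to that without it by construction, and the region counts stayed 22 and 4; it changed no call. Leaving out peaks at other genes' ends, an alternative chosen after seeing the data, gave a rank difference of −14.2. Depth is known only in relative terms, and the low depth of Hox-/- replicate 1 limits every statement on absence.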
